A study of Mus musculus with 8 samples.

Results

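Enzymes that oxidise, reduce or interconvert aldehydes, ketones and alcohols were followed in the livers of female B6C3F1 mice dosed with furan. Furan is a volatile ring-shaped food contaminant that the liver oxidises to a reactive unsaturated dialdehyde. The set was a list of 42 genes: 16 aldehyde dehydrogenases (ALDH), 12 aldo-keto reductases (AKR), 3 carbonyl reductases (CBR), 4 alcohol dehydrogenases (ADH) and 7 other aldehyde or quinone enzymes. Members were the genes whose array probe carried a RefSeq accession mapping to a listed symbol. Of the 42 genes, 40 were tested, among 24921 genes or unnamed features in all. No probe mapped to Akr1c20, and the probe for Aldh1l2 was well above background on 0 of 8 arrays.

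The furan group was 4 female B6C3F1 mice given 8 mg furan per kg body weight in corn oil by oral gavage over 21 days. The vehicle group was 4 female B6C3F1 mice given corn oil alone for the same time. All livers were snap-frozen, having been collected 4 hours after dosing ended. Other doses named in the labels were not analysed here.

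ALDHs oxidise aldehydes to carboxylic acids, and the aldehyde oxidases reach the same products with a molybdenum cofactor. AKRs and CBRs use NADPH to reduce aldehydes and ketones to alcohols, while ADHs run between alcohols and aldehydes with NAD. Liver carries high amounts of many of these enzymes, where they handle ethanol, retinoids, steroids, lipid peroxidation products and foreign compounds.

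RNA was hybridised to the 8 single-colour Agilent arrays of 1 slide. A level below is the log2 of the scanner's processed signal minus the array's 75th percentile, so that 0 is the 75th percentile of that array. Levels of different genes come from different probes and were not set against each other. Between 55.8% and 69.4% of the spots were well above background on the furan arrays, and between 55.1% and 86.2% on the vehicle arrays. Vehicle replicate 2 stood apart at 86.2%, the next highest array being furan replicate 43. The same 5 members were past the threshold with and without that library.

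The tissue label was checked with 10 hepatocyte markers, all of which were tested. Their summed level, a log2 value, lay between 12.4 and 12.6 in furan livers and between 12.3 and 12.8 in vehicle livers. Of 66 tested markers of hepatocytes, macrophages, endothelium, bile duct, stellate cells, lymphocytes, pancreas, red cells and fat, 0 passed the threshold in either direction. Summed endothelial marker levels did not overlap, at 6.31 to 6.56 in furan livers and 6.58 to 6.86 in vehicle livers, nor did those of exocrine pancreas, at 3.08 to 3.55 in furan livers and 3.60 to 3.96 in vehicle livers. Each sum is weighted to its brightest marker, Clec4g for endothelium and Amy2a5 for pancreas, and for both of these the groups overlapped. Taken singly, 3 of 10 endothelial and 2 of 7 pancreas markers had groups that did not overlap, all with furan below. Among all features, 18.1% had groups that did not overlap in either direction, and 7.36% lay entirely below. Furan minus vehicle was not negative for Lyve1 (0.00), Cdh5 (0.05) and Cela1 (0.44) on the log2 scale. The part of these cell types in the results below was not tested. In whole liver, fewer cells of a type and less RNA per cell cannot be told apart.

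Of the 40 tested members, 5 rose in furan livers and 0 fell, at a Benjamini-Hochberg adjusted p under 0.05 in limma over all features. The risen members were Akr1c18, Cbr3, Cbr1, Ptgr1 and Adh4. They make up 12.5% of the tested members, while 4.18% of all features were called in either direction, 2.87% higher and 1.31% lower. All 4 furan livers lay above all 4 vehicle livers for 13 members (32.5%), with the 3 usable furan arrays for Adh4, and all below for 0. Among all features, 10.8% lay entirely above and 7.36% entirely below.

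The fitted log2 fold change, furan minus vehicle, was positive for 32 members and negative for 8. Its median over members was 0.21, against -0.09 over all features, and it ran from -0.61 for Aldh1a3 to 2.17 for Cbr3. Scaling each array to its median signal instead raised the median log2 fold change to 0.69 over members and 0.39 over all features. With no filter on dim probes the medians lay further apart, at 0.21 over members and -0.24 over all features. The medians lay closer together under some other processings. They were 0.18 over members and 0.05 over all features with quantile normalization. With normexp background correction and quantile normalization they were 0.16 and 0.02, and with the value table made by the authors 0.13 and 0.01. Of all features, 714 were higher and 327 lower as tested, and 85 were higher and 1 lower with median scaling. In the CBR family 2 of 3 rose, in the ADH family 1 of 4, in the AKR family 1 of 11, among the other enzymes 1 of 7, and in the ALDH family 0 of 15. Median log2 fold changes were 0.81 for CBR, 0.24 for ADH, 0.23 for AKR, 0.16 for the other enzymes and 0.12 for ALDH. The difference between families was not tested.

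**Figure D1:**
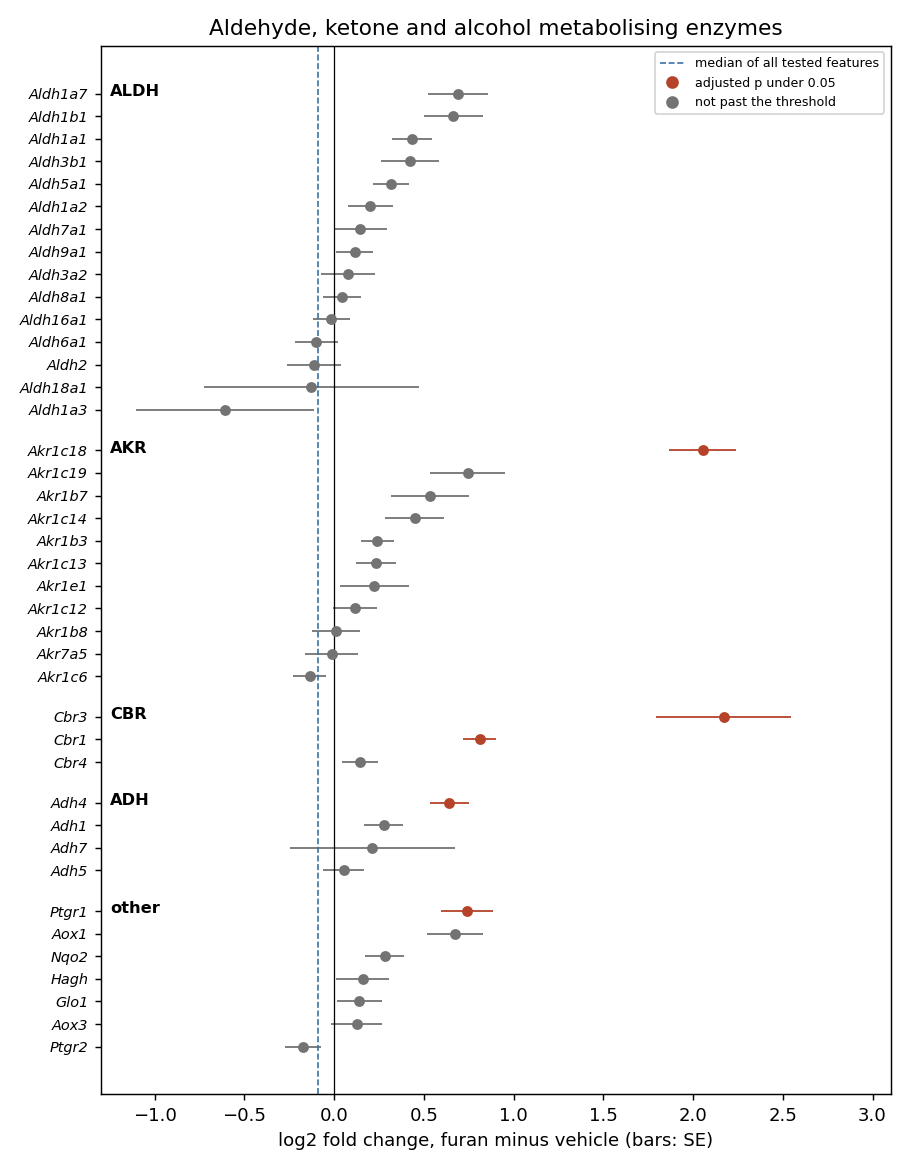
Log2 fold change (x axis, furan minus vehicle, bars ± SE) of the 40 tested members, grouped by family, with called members coloured and a dashed line at the median of all features. Cbr3 and Akr1c18 stand near 2, the other called members lie between 0.64 and 0.81, and no ALDH member is called.

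The carbonyl reductases are short-chain dehydrogenases that reduce quinones, ketones and aldehydes. Cbr1 is the broad-substrate cytosolic form, Cbr3 its close relative, and Cbr4 a mitochondrial quinone reductase that also serves fatty acid synthesis. Cbr1 and Cbr3 are neighbouring genes on mouse chromosome 16. Their upstream sequences are shown because both genes rose, each ending at the base before the annotated start, with GC boxes (GGGCGG on either strand) in capitals. The Cbr1 window lies at chr16:93607587-93607836 and the Cbr3 window at chr16:93682969-93683218, both on the plus strand of GRCm38.p6, as given by RefSeq.
Cbr1: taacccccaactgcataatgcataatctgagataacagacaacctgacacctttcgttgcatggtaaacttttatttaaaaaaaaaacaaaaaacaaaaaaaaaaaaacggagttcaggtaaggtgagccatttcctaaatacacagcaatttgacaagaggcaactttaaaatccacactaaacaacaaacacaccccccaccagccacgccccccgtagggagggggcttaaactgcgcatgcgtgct
Cbr3: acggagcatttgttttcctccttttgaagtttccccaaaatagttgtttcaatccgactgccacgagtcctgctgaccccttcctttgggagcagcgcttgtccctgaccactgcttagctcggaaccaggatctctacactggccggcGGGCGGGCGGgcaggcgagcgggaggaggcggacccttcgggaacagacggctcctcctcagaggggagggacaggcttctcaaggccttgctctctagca
The Cbr3 window held 2 overlapping GC boxes and the Cbr1 window 0.

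Cbr1 levels were 6.75, 6.59, 6.83 and 6.63 in furan livers, against 5.76, 5.93, 5.88 and 5.99 in vehicle livers. The groups did not overlap, and the lowest furan liver lay well above the highest vehicle liver. This gave a log2 fold change of 0.81 ± 0.09 (SE, n = 4 each), a fold of 1.75, with a limma adjusted p of 0.00847. Cbr1 stayed past the threshold when any 1 array was left out, at adjusted p from 0.0143 to 0.0367.

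Cbr3 levels were 1.89, 0.53, 2.44 and 1.79 in furan livers, against -0.72, -0.61, -0.15 and -0.54 in vehicle livers. Every furan liver was above every vehicle liver, but furan replicate 42 was well below the other furan livers. The log2 fold change was 2.17 ± 0.37 (SE, n = 4 each), a fold of 4.50, with a limma adjusted p of 0.0244. The SD between livers was 0.81 with furan and 0.25 with vehicle.

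The Cbr3 call depended on single arrays. It held in limma without furan replicate 42 (adjusted p = 0.0107) and without vehicle replicate 2 (0.0437). It was lost without furan replicates 41 (0.0783), 43 (0.0643) or 44 (0.0726), and without vehicle replicates 3 (0.0624), 4 (0.0563) or 6 (0.0679). The log2 fold change stayed between 1.91 and 2.55 throughout. Over all features, 195 to 401 were called in the fits that lost the Cbr3 call. The fits that kept it called 245 and 928, and the fit with all arrays 1041.

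Cbr4 did not pass. Its levels were 3.61, 3.41, 3.63 and 3.40 in furan livers, against 3.27, 3.51, 3.29 and 3.40 in vehicle livers, and the groups overlapped. Its log2 fold change was 0.14 with the brightest probe and -0.07 with its other kept probe.

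The AKR1C enzymes reduce keto groups on steroids, prostaglandins and small carbonyls, and in the mouse they form a gene cluster on chromosome 13 in which Akr1c14, Akr1c18, Akr1c13, Akr1c19 and Akr1c12 are adjacent. Akr1c18 is the enzyme that inactivates progesterone in the mouse ovary. It was the AKR member past the threshold, and its upstream sequence is shown for that reason. The window lies at chr13:4150647-4150896 on the minus strand of GRCm38.p6, from RefSeq, with its GC box in capitals.
Akr1c18: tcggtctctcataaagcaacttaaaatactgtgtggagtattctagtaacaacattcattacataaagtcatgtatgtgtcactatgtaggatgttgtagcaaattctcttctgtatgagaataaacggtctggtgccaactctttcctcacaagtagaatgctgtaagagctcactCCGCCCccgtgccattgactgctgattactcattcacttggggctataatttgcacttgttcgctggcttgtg
The window held 1 GC box, written here as its reverse complement.

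Akr1c18 levels were -0.35, 0.48, 0.46 and 0.28 in furan livers, against -1.79, -1.83, -1.79 and -1.94 in vehicle livers. The vehicle livers had an SD of 0.07, and every furan liver lay above them, furan replicate 41 least so. This gave a log2 fold change of 2.05 ± 0.19 (SE, n = 4 each), a fold of 4.15, with a limma adjusted p of 0.00458. It passed the threshold with any 1 array left out, at adjusted p from 0.00253 to 0.0236.

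Akr1c19, of the same cluster, had levels of 5.40, 4.97, 5.31 and 5.20 in furan livers, against 4.00, 4.39, 4.50 and 5.01 in vehicle livers. The groups met at vehicle replicate 6, which lay above furan replicate 42. The log2 fold change was 0.74 ± 0.21 (SE, n = 4 each), with a limma adjusted p of 0.0862, and did not pass.

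The other tested AKR1C members also missed the threshold. Their log2 fold changes were 0.45 for Akr1c14, a hydroxysteroid dehydrogenase, 0.23 for Akr1c13, 0.12 for Akr1c12 and -0.14 for Akr1c6, a liver steroid dehydrogenase. The 6 tested AKR1C members thus ran from -0.14 to 2.05, and the median was 0.34. Whether the probes of these related genes cross-hybridise was not tested.

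Of the AKR1B enzymes, Akr1b3 is mouse aldose reductase, which turns glucose into sorbitol and also reduces lipid aldehydes, and Akr1b7 and Akr1b8 are its close relatives on chromosome 6. None of the 3 passed. Akr1b3 differed by 0.24 on the log2 scale with no overlap between groups. Its levels ran from 2.23 to 2.53 in furan livers and from 2.02 to 2.20 in vehicle livers, while its second kept probe gave 0.00. Akr1b7 differed by 0.54 and Akr1b8 by 0.01. Akr1e1, which reduces anhydrofructose, differed by 0.22, and Akr7a5, the aflatoxin aldehyde reductase relative, by -0.01.

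Cytosolic ALDH1 enzymes oxidise retinal to retinoic acid and act on lipid aldehydes. Aldh1a1 and Aldh1a7, a rodent duplicate of it, lie next to each other on chromosome 19. Their upstream sequences are shown to give the extent of the likeness, with the longest run they share in capitals. The Aldh1a1 window is chr19:20601848-20601967 on the plus strand and the Aldh1a7 window chr19:20727557-20727676 on the minus strand, both of GRCm38.p6 and from RefSeq.
Aldh1a1: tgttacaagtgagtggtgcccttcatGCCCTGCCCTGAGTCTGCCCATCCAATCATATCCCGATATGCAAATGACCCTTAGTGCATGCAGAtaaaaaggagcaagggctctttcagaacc
Aldh1a7: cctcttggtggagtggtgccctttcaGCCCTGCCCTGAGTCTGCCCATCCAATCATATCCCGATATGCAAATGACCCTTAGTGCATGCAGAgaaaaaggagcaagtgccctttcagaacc
The windows were identical at 105 of 120 positions (87.5%), including a run of 65 bases. Probe sequences were not used here, so whether these 2 genes' probes cross-hybridise was not tested.

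Aldh1a7 levels were 6.87, 6.62, 6.81 and 6.81 in furan livers, against 5.84, 6.42, 5.76 and 6.34 in vehicle livers. Its log2 fold change was 0.69 ± 0.17 (SE, n = 4 each), with a limma adjusted p of 0.0624. Furan livers were all above vehicle livers, and vehicle replicates 2 and 4 were the lowest.

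Aldh1b1, a mitochondrial acetaldehyde and retinal dehydrogenase, had levels of 5.18, 5.06, 5.25 and 5.20 in furan livers, against 4.11, 4.78, 4.35 and 4.78 in vehicle livers. This gave a log2 fold change of 0.66 ± 0.16 (SE, n = 4 each), with a limma adjusted p of 0.0630. As with Aldh1a7, there was no overlap, the furan livers were close together, and vehicle replicates 2 and 4 were the lowest.

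Aldh1a1 levels were 8.99, 8.84, 8.95 and 9.01 in furan livers, against 8.29, 8.69, 8.42 and 8.66 in vehicle livers. Furan minus vehicle was, on the log2 scale, 0.43 ± 0.11 (SE, n = 4 each), with a limma adjusted p of 0.0713. Here too the groups were apart and vehicle replicates 2 and 4 lay lowest. The SD between livers was 0.08 with furan and 0.19 with vehicle for Aldh1a1, and 0.08 with furan and 0.33 with vehicle for Aldh1b1.

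Those 3 genes missed the threshold as tested, and each passed it under some other processing. With the filter set at all 8 arrays the limma adjusted p was 0.0395 for Aldh1a7, 0.0403 for Aldh1b1 and 0.0497 for Aldh1a1. With the slide column as a block it was 0.190 for Aldh1a7, 0.182 for Aldh1b1 and 0.211 for Aldh1a1.

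Aldh1a2, the main embryonic retinal dehydrogenase, differed by 0.20 on the log2 scale. Aldh1a3, another retinal dehydrogenase, had the lowest fold change of the set at -0.61 ± 0.49 (SE), with a limma adjusted p of 0.444. It was dim, with its probe well above background on 2 furan and 3 vehicle arrays. Its sign turned under 3 of the other processings. Over the 5 tested ALDH1 members the median log2 fold change was 0.43, and over the 10 other ALDH members it was 0.06. Aldh1l1, an ALDH1 gene outside the member list and so not in that median, differed by -0.10. The difference between these parts of the family was not tested.

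Aldh2, the mitochondrial enzyme that clears acetaldehyde from ethanol, did not pass. Its levels were 7.68, 7.50, 7.76 and 7.74 in furan livers, against 7.48, 8.01, 7.61 and 8.04 in vehicle livers, with a log2 fold change of -0.11 ± 0.15 (SE). All furan livers lay inside the range of the vehicle livers.

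Aldh5a1, which oxidises succinic semialdehyde in the breakdown of GABA, lay entirely above in furan livers at 5.35 to 5.66, against 5.07 to 5.27 in vehicle livers. Its log2 fold change was 0.32 ± 0.10 (SE), with a limma adjusted p of 0.109. Aldh3b1, an oxidase of lipid aldehydes, differed by 0.42 with overlap and an adjusted p of 0.172. Neither passed.

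The remaining ALDH members differed by less than 0.15 on the log2 scale in either direction. They were Aldh3a2 (0.08), the fatty aldehyde dehydrogenase, Aldh9a1 (0.12), which acts in carnitine synthesis, and Aldh8a1 (0.04), an enzyme of tryptophan breakdown. Aldh6a1 (-0.10) acts on methylmalonate semialdehyde, Aldh18a1 (-0.13) makes proline precursors, and Aldh16a1 (-0.02) is held to lack activity in mammals. Aldh7a1, a lysine breakdown enzyme, differed by 0.15 with its brightest probe and by -0.41 with its other kept probe. For Aldh6a1 the 2 probes gave -0.10 and -0.24.

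**Figure D2:**
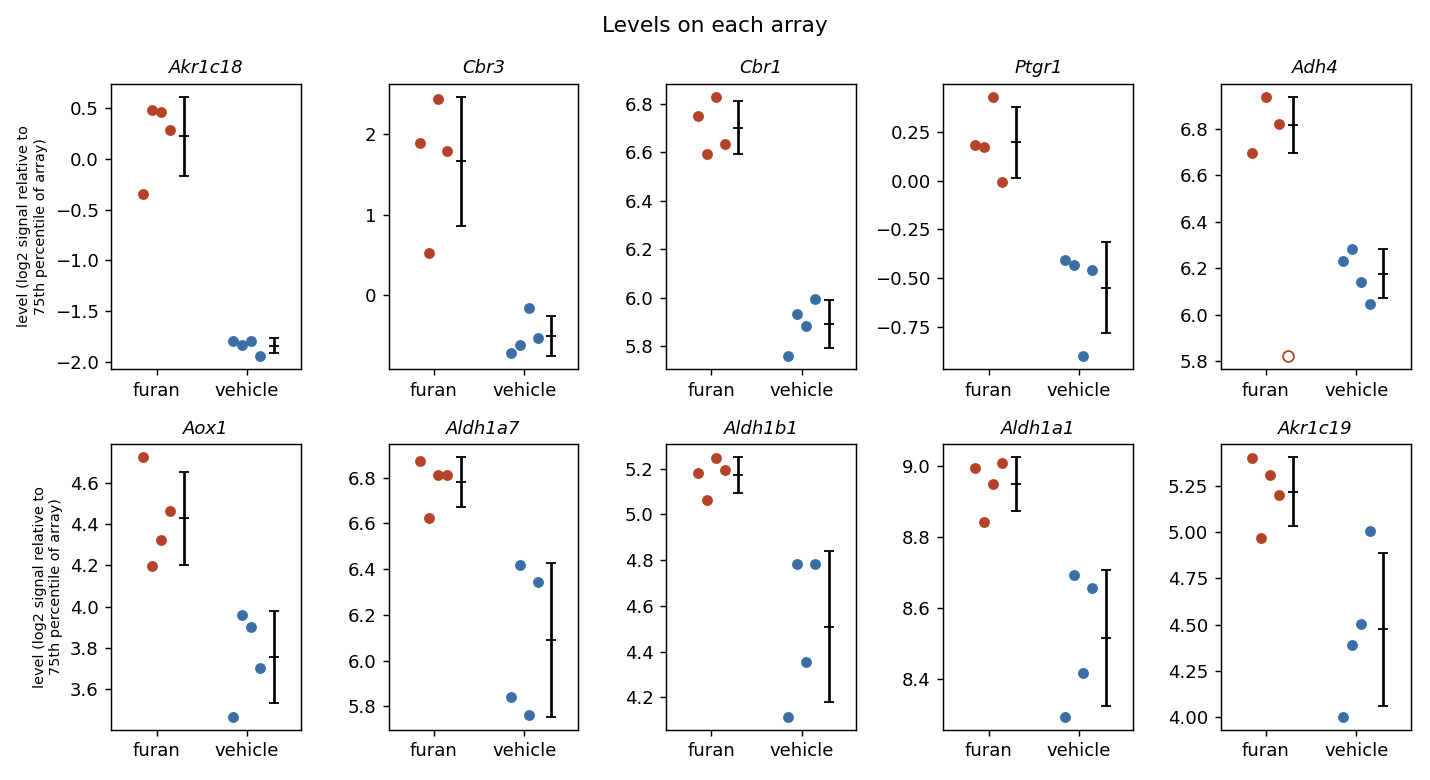
Level on every array (y axis, log2 signal relative to the array's 75th percentile), furan livers left and vehicle livers right. The panels show the 5 called members and Aox1, Aldh1a7, Aldh1b1, Aldh1a1 and Akr1c19. Black bars give the mean ± SD (n = 4 each, 3 for Adh4 in furan livers). The y scales differ by panel and do not start at 0. Among the filled points of these panels, the groups meet for Akr1c19 alone, while many members not shown overlapped. For Adh4 an open circle at 5.82 marks the furan spot that the scanner set aside.

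Adh4 oxidises retinol and long-chain alcohols and belongs, with Adh1 and Adh5, to the Adh cluster of chromosome 3. Its upstream sequence is given because it was the ADH member past the threshold. The window is chr3:138415247-138415496 on the plus strand of GRCm38.p6, from RefSeq, with no GC box to mark.
Adh4: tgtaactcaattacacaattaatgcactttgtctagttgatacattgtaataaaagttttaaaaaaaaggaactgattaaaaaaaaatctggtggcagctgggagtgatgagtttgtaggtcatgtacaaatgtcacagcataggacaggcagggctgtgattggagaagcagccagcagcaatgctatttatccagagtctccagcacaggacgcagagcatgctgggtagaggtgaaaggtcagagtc
No TATAAA was in it either.

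Adh4 levels were 6.70, 6.94 and 6.82 in furan livers, against 6.23, 6.28, 6.14 and 6.05 in vehicle livers. The 3 furan values were above every vehicle value. Furan replicate 44 entered as missing because the scanner marked that spot as an outlier, at a level of 5.82, below all 4 vehicle livers. This gave a log2 fold change of 0.64 ± 0.11 (SE, n = 3 furan and 4 vehicle), a fold of 1.56, with a limma adjusted p of 0.0284.

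The Adh4 call rests on that spot. With outlier-marked spots kept, a choice made after seeing the data, the log2 fold change was 0.39 and the limma adjusted p 0.327. The value table made by the authors gave 0.32 and 0.377. The call also held without vehicle replicate 2 (adjusted p = 0.0403). It was lost without furan replicates 41 (0.0702), 42 (0.0908), 43 (0.0953) or 44 (0.0516), and without vehicle replicates 3 (0.0566), 4 (0.0766) or 6 (0.0727). Furan replicate 44 held no Adh4 value, so leaving it out kept the Adh4 values and the log2 fold change of 0.64. Over all features that fit called 259, against 1041 with all arrays.

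Adh1, the main ethanol-oxidising enzyme of liver, had levels of 9.14, 9.31, 9.30 and 9.24 in furan livers, against 8.73, 9.13, 8.95 and 9.08 in vehicle livers. The furan livers were all higher, though furan replicate 41 and vehicle replicate 3 nearly met. Furan minus vehicle was, on the log2 scale, 0.28 ± 0.11 (SE, n = 4 each), with a limma adjusted p of 0.184, and did not pass. Adh5, which clears formaldehyde bound to glutathione, differed by 0.05. Adh7, a stomach form, differed by 0.21 and was dim, with its probe well above background on 3 furan and 2 vehicle arrays.

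Ptgr1 reduces the double bond of unsaturated aldehydes and of leukotriene and prostaglandin products, so it acts on a different group from the carbonyl itself. Its upstream sequence is shown as that of the last called member, at chr4:58987079-58987328 on the minus strand of GRCm38.p6, from RefSeq, with 2 GC boxes in capitals as their reverse complements.
Ptgr1: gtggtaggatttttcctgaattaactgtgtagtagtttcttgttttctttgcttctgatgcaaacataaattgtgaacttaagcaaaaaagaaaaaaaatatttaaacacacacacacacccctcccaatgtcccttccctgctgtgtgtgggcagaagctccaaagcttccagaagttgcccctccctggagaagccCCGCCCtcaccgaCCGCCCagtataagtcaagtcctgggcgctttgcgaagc
The boxes lie close together in the part nearest the start.

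Ptgr1 levels were 0.18, 0.17, 0.43 and -0.01 in furan livers, against -0.41, -0.43, -0.90 and -0.46 in vehicle livers. The groups were apart, and vehicle replicate 4 was below the other vehicle livers. This gave a log2 fold change of 0.74 ± 0.15 (SE, n = 4 each), a fold of 1.67, with a limma adjusted p of 0.0354. With 1 array left out, the call held without vehicle replicate 2 (adjusted p = 0.0435). It was lost without furan replicates 41 (0.0979), 42 (0.0888), 43 (0.0953) or 44 (0.0637), and without vehicle replicates 3 (0.0651), 4 (0.0633) or 6 (0.0774).

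Ptgr2, which reduces keto-prostaglandins, differed by -0.17 with its brightest probe and by 0.13 and -0.30 with its other kept probes. It did not pass.

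The aldehyde oxidases Aox1 and Aox3 are neighbours on chromosome 1. Aox1 levels were 4.73, 4.20, 4.33 and 4.47 in furan livers, against 3.46, 3.96, 3.90 and 3.70 in vehicle livers, with no overlap. The log2 fold change was 0.67 ± 0.16 (SE, n = 4 each), with a limma adjusted p of 0.0550. Aox3 differed by 0.13, with groups that overlapped, so neither passed.

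Nqo2, a quinone reductase, lay apart at 5.45 to 5.69 in furan livers, against 5.01 to 5.38 in vehicle livers, with a log2 fold change of 0.28 and a limma adjusted p of 0.179. Its second probe gave 0.24. Glo1 and Hagh, which together turn methylglyoxal into lactate, differed by 0.14 and 0.16 and did not pass.

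Each column of the slide held 1 furan and 1 vehicle array. Within the 4 columns the furan minus vehicle difference, on the log2 scale, was 0.60 to 0.99 for Cbr1, 1.44 to 2.42 for Akr1c18, 1.07 to 3.05 for Cbr3 and 0.59 to 0.89 for Ptgr1. For Adh4 it was 0.46 to 0.89 in the 3 columns with a value. Since the groups of these 5 members do not overlap, the sign within a column was fixed beforehand, and the sizes are given as a description.

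With the slide column as a block, limma called 0 of 24921 features, 4723 of which had an unadjusted p under 0.05. The adjusted p was then 0.0959 for Akr1c18, 0.119 for Cbr1, 0.129 for Ptgr1, 0.133 for Cbr3 and 0.191 for Adh4. Their log2 fold changes were unchanged except for Adh4, at 0.63. The SE fell for Ptgr1 (0.15 to 0.11) and Cbr3 (0.37 to 0.35), and rose for Akr1c18, Cbr1 (0.09 to 0.11) and Adh4 (0.11 to 0.15). This fit estimates more terms from the same arrays, and why the calls were lost was not tested. With the slide row as a block, in which the 2 rows hold 2 furan and 2 vehicle arrays each, all 5 stayed past the threshold. Differences within the 2 rows were 0.85 and 0.77 for Cbr1, 2.24 and 1.87 for Akr1c18, and 2.75 and 1.59 for Cbr3. They were 0.64 and 0.84 for Ptgr1, and 0.68 and 0.60 for Adh4.

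Scaling and filtering also moved single calls. With median scaling, Akr1c18 (limma adjusted p = 0.00274) and Cbr3 (0.00879) stayed past the threshold, and Cbr1 (0.316), Ptgr1 (0.316) and Adh4 (0.477) did not. With no filter on dim probes, Akr1c18 (0.0194) and Cbr1 (0.0362) stayed, and Cbr3 (0.0705), Adh4 (0.0935) and Ptgr1 (0.0999) did not. With quantile normalization Adh4 was lost (0.0674) and Aldh1a1 passed (0.0335).

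**Figure D3:**
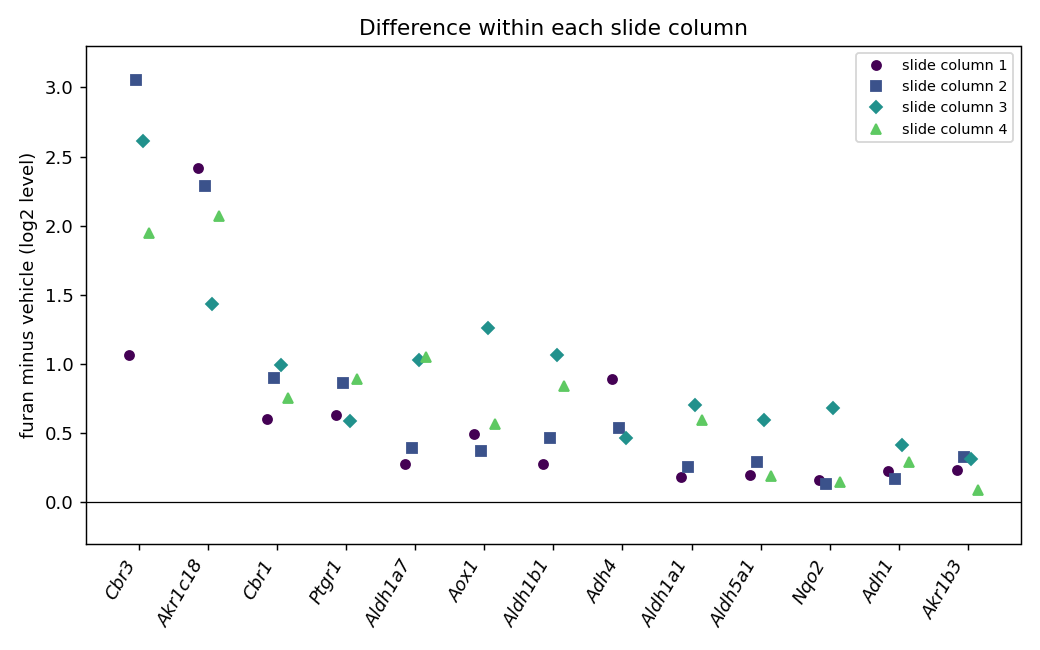
Furan minus vehicle difference (log2) within each of the 4 slide columns for the 13 members whose furan livers all lay above the vehicle livers, 1 point per column and a line at 0. The choice of these members puts every point above 0, and what can be read is the spread, which for Cbr3 runs from 1.07 to 3.05. Adh4 has no point in column 4. Its outlier-marked furan spot there, at 5.82, lay below vehicle replicate 4 at 6.14.

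Sequence motifs near the gene starts were counted as a description. The antioxidant response element core (TGACNNNGC, either strand) was searched in the 300 bases around the start of the 36 members listed by RefSeq. It was in 4 of 36 members (11.1%), namely Aldh1a2, Aldh9a1, Akr1c19 and Hagh, and in 14.0% of 27025 genes. Among the 5 called members 0 held it in this window. The Akr1c19 core begins at base 8 counted from the start, in chr13:4233737-4233766 on the plus strand of GRCm38.p6, and is in capitals as its reverse complement because Akr1c19 had the next largest log2 fold change of the AKR members after Akr1c18.
Akr1c19: agcagaacttGCTTAGTCAgaagagtgata
The GC box was in the 250 upstream bases of 15 of 36 members (41.7%), against 35.4% of all genes, and TATAAA in 5 of 36 (13.9%), against 14.3%. The GC box and TATAAA were chosen after the sequences had been seen.

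Around the members, 4 other gene lists were read. Over all features, 2.87% were called higher and 1.31% lower, with a median log2 fold change of -0.09. Of 11 tested further aldehyde and alcohol dehydrogenases and AKRs, 0 rose or fell, and their median log2 fold change was 0.05. Of 31 tested short-chain dehydrogenases of retinoids, steroids and carbonyls, 0 rose and 3 fell, with a median of -0.10. These were Hsd17b6 (log2 fold change -0.55, limma adjusted p = 0.0199) and Sdr9c7 (-0.86, 0.0200), which act on steroids and retinoids, and the retinol dehydrogenase Rdh9 (-0.50, 0.0354). The called carbonyl reductases, which belong to the same protein superfamily, had the opposite direction as tested. With median scaling the log2 fold changes of these 3 genes were -0.07 for Hsd17b6, -0.38 for Sdr9c7 and -0.01 for Rdh9, none past the threshold, and the median of the list turned positive at 0.38. With 1 array left out, the count of 3 held without vehicle replicate 2, was 1 without vehicle replicate 6, and was 0 without vehicle replicates 3 or 4 or any 1 of the furan replicates.

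Of 3 genes of furan activation and epoxide handling, Ephx1, microsomal epoxide hydrolase, rose by 1.00 ± 0.11 (SE) on the log2 scale (limma adjusted p = 0.00603). Cyp2e1, which oxidises furan, differed by -0.11 (adjusted p = 0.615), and Ephx2 by -0.31. Of 18 tested genes of the NRF2 response, 7 rose and 0 fell, with a median log2 fold change of 0.59. Among all features 2.87% were called higher, and the median was -0.09. NRF2 is a factor that switches on detoxifying and antioxidant genes. The count was 2 without furan replicates 41, 43 or 44 or vehicle replicate 3, 3 without furan replicate 42, 4 without vehicle replicate 6, 5 without vehicle replicate 2 and 6 without vehicle replicate 4. The 7 include Nqo1, a quinone reductase (1.35, adjusted p = 0.00501), Srxn1, which repairs peroxiredoxins (1.25, 0.0106), Txnrd1, thioredoxin reductase (0.70, 0.0199), and Gclc, the first enzyme of glutathione synthesis (0.77, 0.0224). This list was chosen with results of these samples known, so its direction is not independent evidence.

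**Figure D4:**
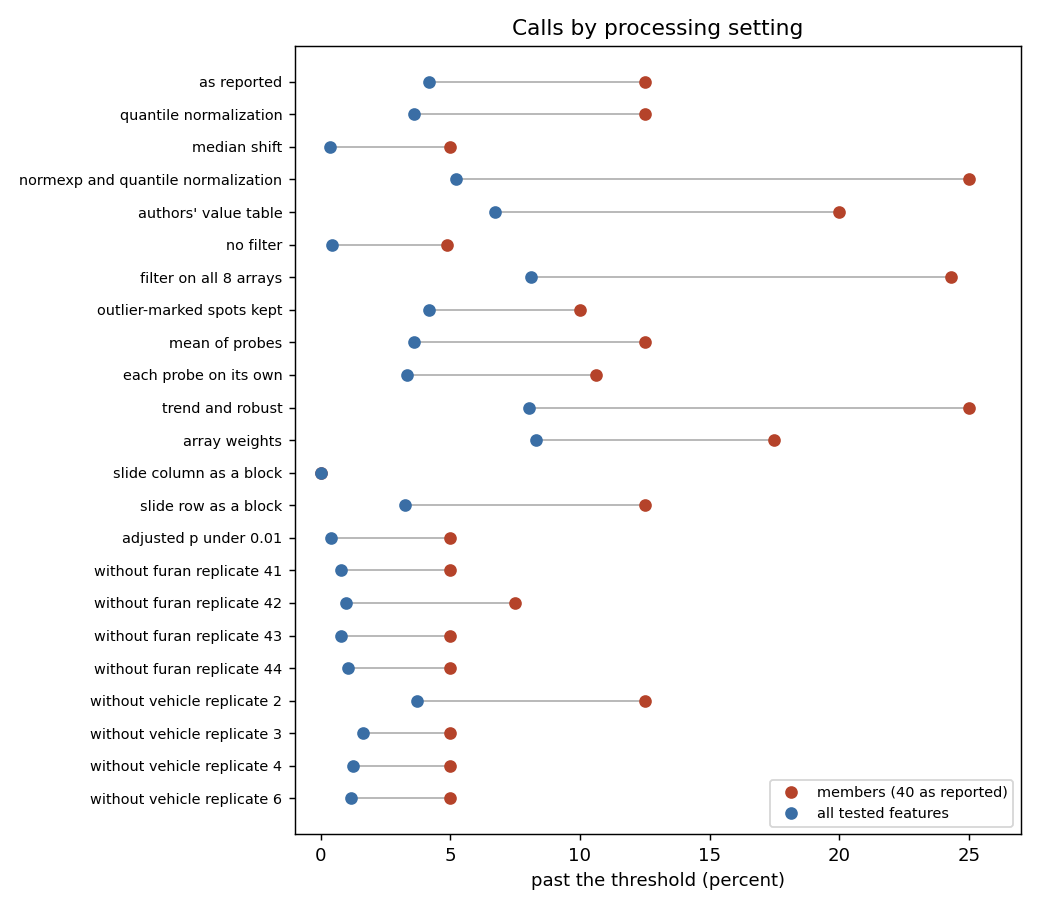
Percent past the threshold (x axis) under each processing (y axis), furan against vehicle, with red points for the tested members and blue points for all tested features. As reported it was 12.5% of members and 4.18% of features, and with the slide column as a block 0 members and 0 features, where the points coincide.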

How the data were processed

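Liver RNA of 4 furan and 4 vehicle mice was measured on 1 slide, and per the labels each array is 1 animal. The intensity values are the authors' deposited scanner output, and per the file headers the processed signal is already background-subtracted. The authors' deposited value table holds log2 values, normalization not given in the sources used here, that correlate at 0.998 to 1 per array with the log2 median intensity. Spots were scaled as log2 of the processed signal minus the array's 75th percentile. Control spots and outlier-marked spots were left out (111 features then lacked a value on an array), and spots of 1 probe were averaged. Of 55681 probes, 33848 were well above background on at least 4 of 8 arrays, and the brightest probe stood for a gene. Symbols came from RefSeq through the probe's accession.

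Groups were compared with limma 3.58.1 (R 4.3.3) with Benjamini-Hochberg adjustment over 24921 features at 0.05. With 4 arrays a group, their number limits the precision. On simulated data of 24921 features, the fit recovered 40 of 67 altered genes at a true fold of 2. It recovered 55 of 66 at 4 and 9 of 67 at 1.5, and made 4 false calls. The simulation altered far fewer features than were called here. Its noise was independent between arrays, with no shift of a whole array, so these counts may not carry over to the real arrays. Every member is named, with array values for called members and the top 2 by size in each family, and up to 4 genes of each other list. Array values of further members were given after their values were seen. The members and lists were chosen with earlier results of these data known. A randomized block design is named in the labels, but not the members of each block, so none was fitted. Python 3.11.15, pandas 2.3.3, numpy 2.4.6 and matplotlib 3.10.9 were used.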

Additional observations from a re-analysis of the deposited data

Results flagged for a closer look

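In 79 groups of 4 arrays, 3 single arrays stood apart from the others of their group by Dixon's test, which chance does in about 1 group in 20. The level of Adh7 on furan replicate 43 was -3.72, while the other furan livers lay between -4.48 and -4.36. The level of Aox3 on furan replicate 43 was 4.20, while the other furan livers lay between 3.78 and 3.84. The level of Ptgr1 on vehicle replicate 4 was -0.90, while the other vehicle livers lay between -0.46 and -0.41. Without that array the log2 fold change of Ptgr1 was 0.63 and its limma adjusted p 0.0633.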

How the results depend on the processing

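Of the calls, Akr1c18 and Cbr1 passed with any 1 array left out, while Cbr3, Adh4 and Ptgr1 did not. The number of members called was 2 with median scaling, 10 with normexp background correction, 8 with the authors' table, 2 with no filter, 9 with the filter at all 8 arrays, 10 with a trended robust fit, 0 with the slide column as a block and 2 at an adjusted p under 0.01, and leaving out single arrays gave 2 to 5. Over all features the counts were 86 with median scaling, 1671 with the authors' table, 163 with no filter, 1733 with the filter at all 8 arrays, 2001 with a trended robust fit, 2068 with array weights, 0 with the column block and 101 at an adjusted p under 0.01, and leaving out single arrays gave 195 to 928. Slide columns pair 1 furan with 1 vehicle array by position, which is the column block above, and no pairing by animal could be fitted because the groups share no replicate numbers.

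Median scaling moved the median of all features to 0.39 and the medians of ALDH to 0.60, AKR to 0.72, CBR to 1.30, ADH to 0.73, the other enzymes to 0.65 and all members to 0.69. Quantile normalization moved ALDH to 0.23 and ADH to 0.41, and leaving out single arrays gave 0.14 to 0.42 for ADH. The further dehydrogenases had 1 call with normexp, the authors' table and the trended fit. The short-chain list had 0 calls with median scaling, no filter, the column block and an adjusted p under 0.01, 7 with the authors' table, 5 with the trended fit, and 0 to 3 without single arrays. Furan activation had 0 with median scaling and the column block, and 2 by single probes. The NRF2 list had 1 with median scaling, 2 with no filter, 0 with the column block, 1 at an adjusted p under 0.01, and 2 to 6 without single arrays.

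Median scaling subtracts a single value from each array, so it moves the log2 fold change of every gene without a missing value by the same amount. The log2 median signal was 7.03 on vehicle replicate 2 and between 5.02 and 5.59 on the other arrays. The cause of that difference, and of the other shifts, was not tested. Signs turned for uncalled genes. With median scaling the log2 fold changes became 0.37 for Aldh2, 0.39 for Aldh6a1, 0.47 for Aldh16a1, 0.36 for Aldh18a1, 0.35 for Akr1c6, 0.47 for Akr7a5, 0.31 for Ptgr2 and 0.38 for Cyp2e1. Quantile normalization, normexp and the authors' table gave 0.24, 0.058 and 0.026 for Aldh1a3, -0.0092, -0.013 and -0.0025 for Aldh3a2, -0.014, -0.0052 and -0.066 for Aldh8a1, 0.49, 0.14 and 0.13 for Aldh18a1, and -0.069, -0.065 and -0.043 for Akr1b8. Cyp2e1 was 0.0004 with quantile normalization and 0.013 with normexp. Array weights gave -0.025 for Aldh8a1, 0.38 for Aldh18a1 and -0.050 for Akr1b8. Other probes gave -0.41 for Aldh7a1 (mean of probes -0.13), -0.072 for Cbr4 and 0.13 for Ptgr2. Over the fits without single arrays the sign turned in at least 1 for Aldh3a2 (-0.021 to 0.22), Aldh8a1 (-0.043 to 0.098), Aldh16a1 (-0.053 to 0.053), Aldh18a1 (-0.43 to 0.48), Akr1b8 (-0.058 to 0.13), Akr7a5 (-0.11 to 0.089) and Adh7 (-0.12 to 0.65). Aldh1a3, Aldh18a1 and Adh7 were near background, which limits their values.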
